A study of Mus musculus with 16 samples.

Results

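Chemokines and their receptors were followed over a mouse alveolar rhabdomyosarcoma (aRMS) culture after knockdown of the Pax3:Foxo1a fusion oncogene, in cells sorted by DNA content. The members were all probes on the array whose platform gene symbol starts with Ccl, Cxcl, Cx3cl, Xcl, Ccr, Cxcr, Cx3cr, Xcr or Ackr and goes on with a number and at most 1 letter. By this rule 76 of the 25697 probes were members, and they covered 59 genes, 38 of them ligands and 21 receptors. Of the 76 probes, 20 were detected on at least 3 of the 16 arrays (detection p under 0.05) and were tested, 2 were detected on 1 or 2 arrays, and 54 were detected on none. The 20 tested probes belong to 15 genes, 13 ligands and 2 receptors.

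Chemokines are small secreted proteins that draw cells along a gradient, and they are sorted into CC, CXC, CX3C and XC classes by the spacing of cysteines near their amino terminus. They act through G protein-coupled receptors that signal by inhibitory G proteins, while the atypical receptors (Ackr) bind chemokines and clear them without that signal. Ligands are held at the cell surface by heparan sulfate, and many of their genes are switched on by NF-kB and by interferons. In skeletal muscle Cxcl12 guides migrating precursor cells that carry Cxcr4, and in human aRMS the same pair is known for directing tumor cell movement.

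The cells were a primary tumor culture from the Myf6Cre, Pax3:Foxo1a, p53 conditional mouse, so that Cre driven by Myf6 turns on the fusion and removes p53 in the muscle lineage, and all groups share this genotype. In this mouse eYFP lies on the Pax3:Foxo1a messenger as a second cistron, and the fusion was knocked down with 10 nM of an siRNA to eYFP (siYFP), against a control siRNA given with the same lipid reagent. Cells were sorted as 2N (G1/G0), 3N (S) and 4N (G2/M), which gave 6 groups. Control and knockdown cells of 2N and 4N content had 3 arrays each, 1 from each of 3 experiments, and those of 3N content had 2 each, from experiments 1 and 2. The siRNA to eYFP was a single product, so a response to that duplex and the loss of the fusion cannot be told apart in any comparison of knockdown with control.

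Transcripts were read on 1-colour Illumina MouseRef-8 v2 BeadChips with 1 array per RNA sample, and all levels below are log2 probe signals after background correction and quantile normalization. Between 12535 and 13135 probes were detected per array, replicate arrays correlated at 0.987 to 0.993, and the lowest signal of a detected probe lay between 5.62 and 5.81 on the 16 arrays. Precision is limited by how many arrays each group has. The target was checked with Foxo1, whose probe may read native Foxo1, the fusion or both. It fell by 0.82 on the log2 scale over the 3 DNA contents (SE 0.09, limma adjusted p = 5.1e-06), in 8 of 8 pairs of knockdown and control arrays from the same experiment.

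The labelled cell type was checked with marker lists. Marker changes are averaged over 2N, 3N and 4N cells, and those counted passed an adjusted p under 0.05 in limma. In that comparison 37.5% of all tested probes passed, 17.2% higher and 20.3% lower. Of 11 muscle markers with a probe, 6 were measured, among them Myog, Myf5, Des and Chrna1, while Myod1, Pax7 and Cav3 were detected on no array. Of these 6, 3 rose after knockdown (Chrng by 0.80, Des by 0.54 and Megf10 by 0.46), and Chrna1 fell by 0.55. Of 17 immune markers with a probe, 12 were detected on no array, including Ptprc, Adgre1, Itgam, Lyz2 and Tyrobp, which define leukocytes and macrophages. A summed signal was taken over all 17 immune markers with a probe, the 12 undetected ones included. It ran from 663 to 692 in 2N control and 633 to 678 in 2N knockdown cells. The ranges were 650 to 702 and 669 to 694 in 3N cells, and 688 to 731 and 687 to 701 in 4N cells. Among the 4 measured immune markers Cd53 fell by 1.24 (SE 0.08), while Cd3e rose by 0.69 (SE 0.12) and Coro1a by 0.34 (SE 0.12). Some markers of other cell types also moved with the knockdown, to be read beside the same shares of all probes. Of 7 measured fibroblast and adipocyte markers, 5 rose (Col1a1 by 1.76, Pdgfrb by 1.55) and 2 fell (Pparg by 1.12). Adipoq, Dpt, Fabp4 and Lum were detected on no array. The summed signal of all 12 with a probe, undetected ones included, ran from 6191 to 6737 in 2N control and 6097 to 6700 in 2N knockdown cells. The ranges were 5328 to 6172 and 5625 to 5699 in 3N cells, and 5878 to 6341 and 5835 to 6294 in 4N cells. Of 5 measured epithelial markers, 3 rose (Krt14 by 1.90, Cdh1 by 1.35, Krt8 by 0.46) and Krt19 fell by 1.10. Krt5 was detected on no array. The summed signal of all 6 with a probe, Krt5 included, ran from 11070 to 14805 in 2N control and 12972 to 15808 in 2N knockdown cells. The ranges were 10773 to 12093 and 16384 to 17510 in 3N cells, and 12383 to 14771 and 16118 to 19117 in 4N cells. Of 9 endothelial markers with a probe, 8 were detected on no array, and the measured one, Egfl7, fell by 0.61 (SE 0.09). The part of these markers in the chemokine results was not tested. In such bulk samples fewer cells of a type and less RNA per cell cannot be told apart.

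The first question was which chemokines moved when Pax3:Foxo1a was knocked down. Averaged over DNA content, 7 of the 13 tested ligand genes were called higher, 1 (Ccl25) was called lower, and Ccl5, Cxcl1, Cxcl5, Cx3cl1 and Ccl27a did not pass. The called rises were largest for Ccl7 and Cxcl12, followed by Ccl2 and Cxcl10, and smaller for Cxcl14, Cxcl16 and Ccl9. No tested receptor passed the threshold. Averaged over 2N, 3N and 4N cells, 10 of the 20 tested probes were higher and 1 lower after knockdown (limma, Benjamini-Hochberg over 13882 probes, adjusted p under 0.05), where 37.5% of all tested probes were called in either direction, 17.2% higher and 20.3% lower. Adding the experiment as a block gave 10 higher and 2 lower. In 2N cells 6 probes were higher and none lower, against 19.5% of all probes called (9.46% higher and 10.1% lower). In 3N cells 6 were higher and 1 lower, against 10.7% (5.27% and 5.41%), and in 4N cells 8 were higher and none lower, against 17.3% (8.49% and 8.85%). The median of the 20 averaged differences was 0.41 on the log2 scale, and that of all tested probes was -0.02. The probes of Ccl7, Ccl9 and Cxcl10, 1 Cxcl14 probe (ILMN_2659426) and that of Cx3cr1 were detected on fewer than 3 control arrays. They passed the filter only through the knockdown arrays, which favours probes that are higher there. For that reason neither these counts nor the median of the 20 differences are support for the family as a whole.

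**Figure D1:**
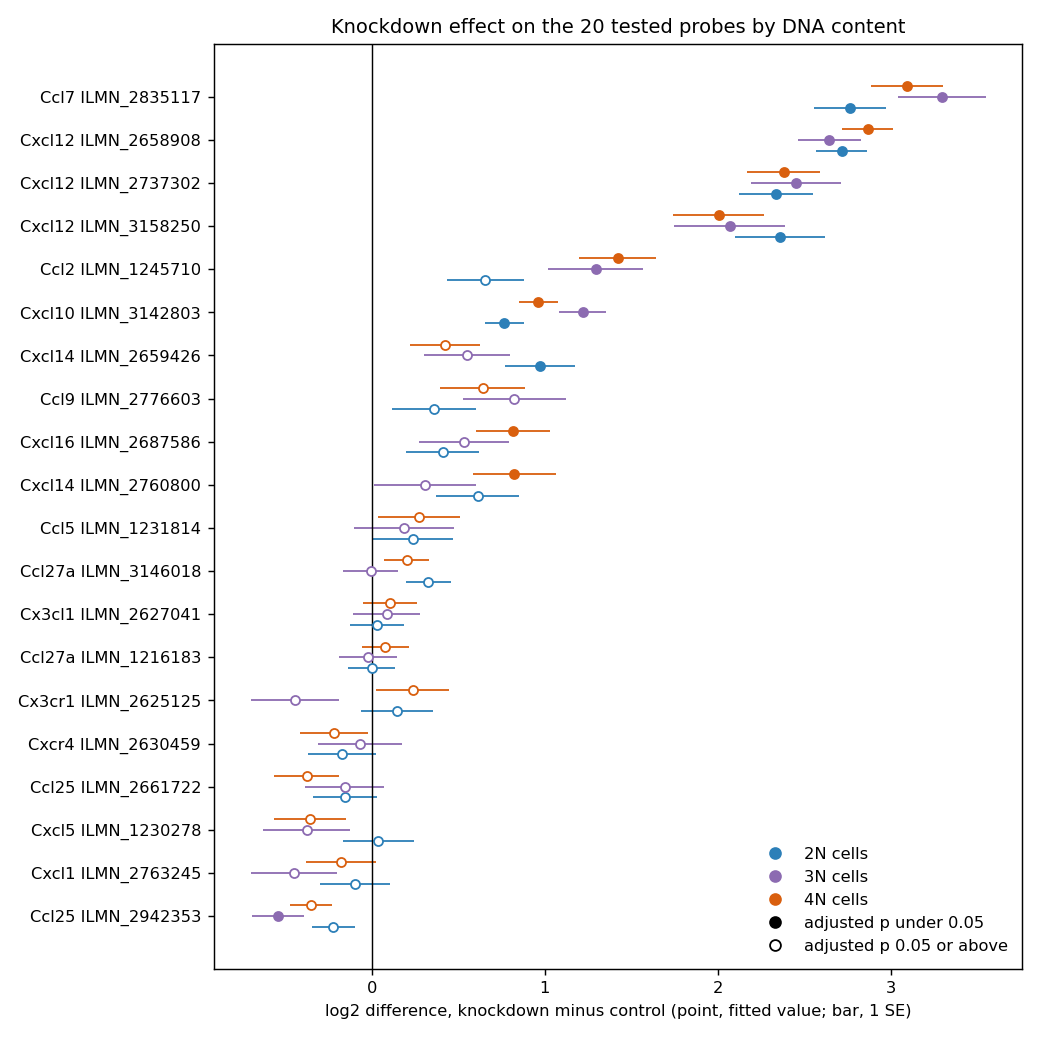
Log2 difference of knockdown minus control (horizontal axis) for each of the 20 tested probes (vertical axis, ordered by the averaged difference) in 2N, 3N and 4N cells, with bars of 1 SE from the limma fit and filled points where the adjusted p was under 0.05. Ccl7 and the 3 Cxcl12 probes lie between 2.00 and 3.29 at every DNA content, while most other probes lie within 1 of zero.

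Upstream sequence is shown for the genes called higher that the RefSeq promoter table holds (GRCm38.p6, 250 bases before to 50 after the start site), so that the gene without a motif match (Cxcl12) can be set beside those with one. Of the 15 tested genes 10 matched, with 13 windows. In the 4 windows below, capitals mark matches, on either strand, to the interferon-stimulated response element core (ISRE, GAAA and GAAA with 2 bases of any kind between them), the NF-kB site (kB), and AP-1 (TGANTCA). A forkhead motif (GTAAACA) was searched as well. The Cxcl10 window lies at chr5:92348840-92349139 (minus strand), that of Cxcl12 at chr6:117168285-117168584 (plus strand), that of Cxcl14 at chr13:56296502-56296801 (minus strand) and that of Ccl9 at chr11:83578587-83578886 (minus strand).
Cxcl10: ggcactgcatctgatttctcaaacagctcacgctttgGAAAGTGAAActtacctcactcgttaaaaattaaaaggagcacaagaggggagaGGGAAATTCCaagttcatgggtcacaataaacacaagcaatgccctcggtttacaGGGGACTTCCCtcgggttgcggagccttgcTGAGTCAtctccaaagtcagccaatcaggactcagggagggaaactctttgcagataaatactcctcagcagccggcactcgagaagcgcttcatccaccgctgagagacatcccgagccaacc
Cxcl12: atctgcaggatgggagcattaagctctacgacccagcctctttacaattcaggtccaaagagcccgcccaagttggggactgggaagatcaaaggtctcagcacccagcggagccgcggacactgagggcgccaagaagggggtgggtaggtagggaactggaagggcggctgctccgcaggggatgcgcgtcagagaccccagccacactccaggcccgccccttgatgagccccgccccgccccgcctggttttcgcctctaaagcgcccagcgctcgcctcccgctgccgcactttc
Cxcl14: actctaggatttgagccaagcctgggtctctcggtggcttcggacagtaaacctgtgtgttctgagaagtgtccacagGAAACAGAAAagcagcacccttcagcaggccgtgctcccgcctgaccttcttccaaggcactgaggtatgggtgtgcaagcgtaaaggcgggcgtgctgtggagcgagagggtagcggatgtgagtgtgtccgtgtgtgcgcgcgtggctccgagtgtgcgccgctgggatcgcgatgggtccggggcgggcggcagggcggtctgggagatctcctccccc
Ccl9: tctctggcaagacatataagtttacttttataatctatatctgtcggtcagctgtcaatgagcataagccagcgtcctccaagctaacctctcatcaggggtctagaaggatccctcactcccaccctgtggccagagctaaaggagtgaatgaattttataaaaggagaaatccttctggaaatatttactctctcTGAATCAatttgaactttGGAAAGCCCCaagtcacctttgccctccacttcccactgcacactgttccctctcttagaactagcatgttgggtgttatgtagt

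With the first transcribed base counted as 0, the Cxcl10 window held an ISRE match at -213 to -204, kB matches at -159 to -150 and, overlapping on both strands, at -104 to -94, and an AP-1 match at -74 to -68. Cxcl14 held an ISRE match at -172 to -163, and Ccl9 an AP-1 match at -53 to -47 and a kB match on the minus strand at -35 to -26. In the Cxcl12 window and in the 2 windows of Ccl25 none of the motifs was found. Of all 32851 windows in the table, 3.44% held the ISRE letters, 8.46% the kB letters, 7.81% the AP-1 letters and 3.65% the forkhead letters, and none of the 13 windows of the tested genes held the forkhead letters. Among ligands that were not called, Cxcl1 held a kB match at -71 to -61, overlapping on both strands, and 1 of the 3 Ccl27a windows held a kB and an AP-1 match. A match describes letters in the window, and binding was not measured.

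Cxcl12, the ligand of Cxcr4, is read by 5 probes, of which 3 were tested and 2 were detected on no array. The probe ILMN_2658908 read 8.55, 8.94 and 8.89 in 2N control cells of experiments 1 to 3, 8.74 and 9.09 in 3N control cells, and 8.34, 8.63 and 8.59 in 4N control cells. After knockdown it read 11.50, 11.56 and 11.46 in 2N, 11.49 and 11.62 in 3N, and 11.15, 11.33 and 11.66 in 4N cells. Every knockdown array lay above every control array, with no overlap at any DNA content. The rise was 6.56-fold in 2N cells (log2 2.71, SE 0.15, adjusted p = 1.72e-07), 6.24-fold in 3N cells (log2 2.64, SE 0.18, adjusted p = 1.82e-06) and 7.27-fold in 4N cells (log2 2.86, SE 0.15, adjusted p = 6.31e-08).

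The other tested Cxcl12 probes moved the same way. ILMN_2737302 read 6.34, 6.93 and 7.10 in 2N, 6.53 and 6.73 in 3N, and 6.20, 6.39 and 6.48 in 4N control cells, against 8.84, 9.49 and 9.05, then 8.93 and 9.22, then 8.54, 9.09 and 8.56 after knockdown. ILMN_3158250 read 5.77, 6.77 and 6.86 in 2N, 6.39 and 7.002 in 3N, and 6.29, 6.20 and 6.82 in 4N control cells, against 8.74, 8.92 and 8.82, then 8.57 and 8.95, then 8.21, 8.62 and 8.47 after knockdown. For both probes the control and knockdown arrays did not overlap, and the 2N control array of experiment 1 was low for both and below detection for the second. Averaged over DNA content, the rises were 5.23-fold (log2 2.39, SE 0.13, adjusted p = 1.16e-08) and 4.41-fold (log2 2.14, SE 0.16, adjusted p = 2.22e-07). Without background correction the second probe's averaged rise was 1.39 on the log2 scale.

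Ccl7, a CC ligand that draws monocytes, was detected on all 8 knockdown arrays and on none of the 8 control arrays. Its probe read 5.14, 4.98 and 5.51 in 2N, 5.62 and 5.08 in 3N, and 5.56, 5.09 and 5.32 in 4N control cells, all below detection. Knockdown arrays read 7.93, 8.30 and 7.70 in 2N, 8.52 and 8.76 in 3N, and 8.30, 8.74 and 8.20 in 4N cells. The groups lay far apart, with about 2 log2 units between the highest control and the lowest knockdown array. After background correction, Ccl7 was set against the lowest signal of a detected probe on each control array. On this scale it was at least 4.67-fold higher in 2N cells (means 5.21 and 7.97, adjusted p = 1.39e-06). It was at least 7.47-fold higher in 3N cells (5.35 and 8.64, adjusted p = 3.19e-06) and at least 6.39-fold higher in 4N cells (5.32 and 8.41, adjusted p = 3.84e-07). These limma p-values test the fitted differences. Under other processing the fitted 2N difference went as low as 1.459 on the log2 scale. The fitted averaged difference of 3.05 (SE 0.13) rests on control signals below detection, and it was 1.69 without background correction. The probe passed the filter only through its knockdown arrays.

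Ccl2, which recruits monocytes through Ccr2 and is the neighbour of Ccl7 on chromosome 11, was detected on all 16 arrays. It read 7.10, 6.38 and 6.54 in 2N, 7.19 and 6.74 in 3N, and 6.93, 7.09 and 6.67 in 4N control cells. With the fusion knocked down it read 7.05, 7.60 and 7.34 in 2N, 8.06 and 8.46 in 3N, and 7.95, 8.56 and 8.44 in 4N cells. The groups overlapped in 2N cells, where the control array of experiment 1 lay above its knockdown partner, and did not overlap in 3N and 4N cells. Ccl2 was 2.68-fold higher in 4N cells (log2 1.42, SE 0.22, adjusted p = 0.000547) and 2.45-fold higher in 3N cells (log2 1.29, SE 0.27, adjusted p = 0.00691). Over all DNA contents the difference was 1.12 (SE 0.14, higher in 7 of 8 pairs), or 0.72 without background correction, and in 2N cells the difference of 0.66 (SE 0.22) had an adjusted p of 0.0532. The 3N call was lost without the control array of experiment 2 (adjusted p = 0.0769) or the knockdown array of experiment 2 (adjusted p = 0.0857). The 2N difference passed the threshold without the control array of experiment 1 (0.87, adjusted p = 0.0186) or the knockdown array of experiment 1 (0.80, adjusted p = 0.0418).

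Ligand genes that lie side by side differed in whether they were detected and called. On chromosome 11 the protein-coding genes Ccl2, Ccl7, Ccl11, Ccl12, Ccl8 and Ccl1 follow one another in this order (GRCm38.p6). Ccl2 and Ccl7 were called higher in the averaged comparison, while Ccl11 was detected on 1 array, from 4N knockdown cells, and Ccl12, Ccl8 and Ccl1 on none. In the next cluster, Ccl5, Ccl9, Ccl6, Ccl3 and Ccl4, Ccl5 was detected on all 16 arrays and not called, Ccl9 was called on 4 detected arrays, and the other genes were detected on none. On chromosome 5 Cxcl5 and Cxcl1 were detected on all 16 arrays and not called, whereas Cxcl3, Cxcl15 and Cxcl2 beside them were detected on none. Cxcl10 was called, and Cxcl9, next to it but for Art3, was detected on no array.

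**Figure D2:**
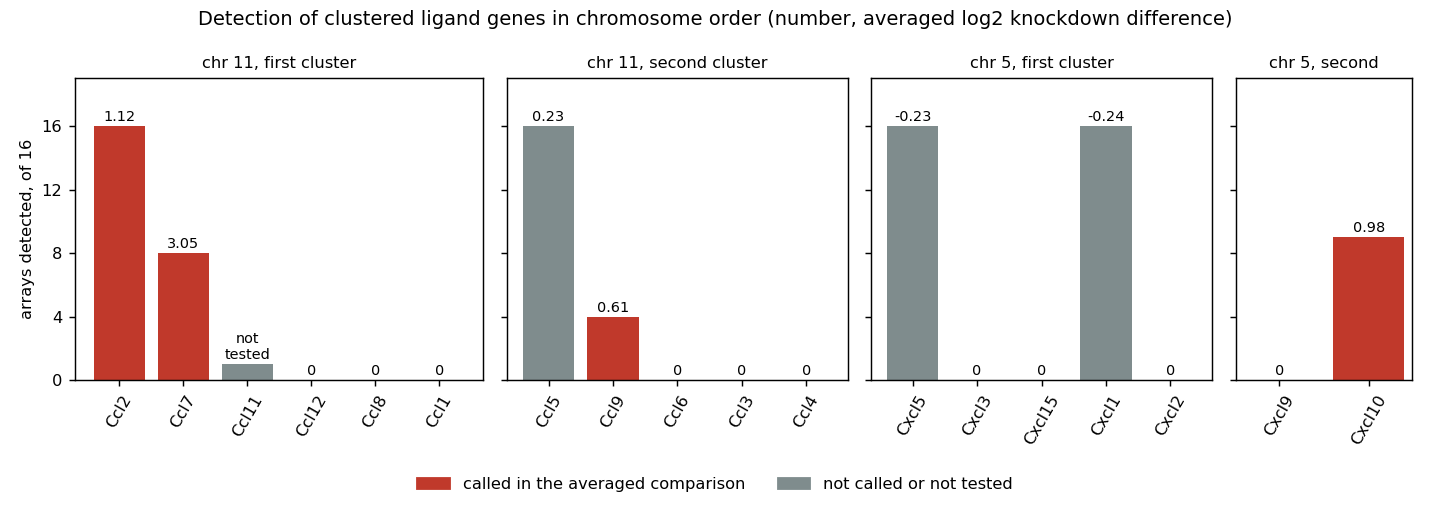
Number of arrays, of 16, on which each clustered ligand gene was detected (vertical axis, best probe of the gene), with genes in chromosome order along the horizontal axis. Numbers over the bars give the averaged log2 knockdown difference, 1.12 for Ccl2 and 3.05 for Ccl7, a 0 marks genes detected on no array, and red bars mark genes called in the averaged comparison.

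Cxcl10, an interferon-induced ligand of Cxcr3 that attracts T cells and natural killer cells, rose at all 3 DNA contents. Control cells read 4.83, 4.93 and 4.94 in 2N, 5.999 and 5.74 in 3N, and 5.51, 5.55 and 5.39 in 4N, and its probe was below detection in all 2N and 4N control cells. Knockdown cells read 5.75, 5.71 and 5.54 in 2N, 7.04 and 7.13 in 3N, and 6.64, 6.28 and 6.40 in 4N, with 1 of these 8 arrays (2N, experiment 3) below detection. At each DNA content every knockdown array lay above every control array, but 3N control and 2N knockdown cells overlapped. In 3N cells, where both groups were detected, the rise was 2.32-fold (log2 1.22, SE 0.14, adjusted p = 7.28e-05). In 4N cells it was at least 1.63-fold (means 5.48 and 6.44, adjusted p = 4.71e-05), and in 2N cells the means of 4.90 and 5.67 gave an adjusted p of 0.000305 with no fold, since the signals lay at the detection limit. The averaged fitted difference of 0.98 (SE 0.07) was 0.47 without background correction and 0.64 with an offset of 50. The Cxcl10 probe passed the filter only through its knockdown arrays.

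Cxcl14, a ligand made constitutively in skin and other epithelia, is read by 2 probes that were called at different DNA contents. ILMN_2760800 read 6.92, 6.36 and 6.19 in 2N, 6.66 and 5.93 in 3N, and 5.94, 6.12 and 6.15 in 4N control cells, against 7.50, 6.87 and 6.93, then 6.90 and 6.31, then 6.73, 7.14 and 6.81 after knockdown. ILMN_2659426 read 6.01, 5.30 and 5.28 in 2N, 5.81 and 5.53 in 3N, and 5.20, 5.55 and 5.73 in 4N control cells, against 6.69, 6.58 and 6.24, then 6.37 and 6.07, then 6.04, 5.99 and 5.72 after knockdown. The groups of the first probe overlapped in 2N and 3N cells and those of the second in 4N cells. The first was called in 4N cells (1.77-fold, log2 0.82, SE 0.24, adjusted p = 0.0294) and, with the experiment as a block, also in 2N cells (log2 0.61, adjusted p = 0.0496 against 0.0909 without it). The second was detected on 2 of 8 control and 7 of 8 knockdown arrays and so was tested only through the latter. It was called in 2N cells (log2 0.97, SE 0.20, adjusted p = 0.00394), where 1 of 3 control and 3 of 3 knockdown arrays were above detection, and its fitted differences rest in part on signals below detection. Averaged over DNA content both were higher, by 0.58 (SE 0.15, adjusted p = 0.0069) and 0.65 (SE 0.13, adjusted p = 0.00103). These averaged rises were 0.29 and 0.28 without background correction. The 4N call was lost without any 1 of 5 arrays, which were the control array of experiment 1 (adjusted p = 0.0916), 2 (0.059) or 3 (0.0589) and the knockdown array of experiment 2 (0.111) or 3 (0.0571), and the 2N difference of the first probe passed without the control array of experiment 1 (adjusted p = 0.0367).

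Cxcl16, a membrane-bound ligand of Cxcr6 that can be shed, was detected on all 16 arrays. Its control arrays read 6.06, 6.22 and 6.57 in 2N, 5.83 and 5.81 in 3N, and 5.75, 6.47 and 6.31 in 4N cells, and its knockdown arrays 6.47, 6.82 and 6.79, then 6.51 and 6.19, then 6.70, 6.87 and 7.41. Only 2N cells showed an overlap between the groups. Cxcl16 was 1.76-fold higher in 4N cells (log2 0.82, SE 0.21, adjusted p = 0.0161) and higher by 0.59 over all DNA contents (SE 0.13, adjusted p = 0.00295), in 8 of 8 pairs. The 4N call was lost without the control array of experiment 1 (0.60, adjusted p = 0.0756) or the knockdown array of experiment 3 (0.61, adjusted p = 0.0741), and the averaged difference was 0.27 without background correction.

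Ccl9, a rodent CC ligand of Ccr1 made by myeloid cells and osteoclasts, was near the detection limit. Control cells read 5.11, 4.91 and 4.85 in 2N, 5.14 and 5.04 in 3N, and 5.18, 5.40 and 5.21 in 4N, all below detection. Knockdown cells read 5.28, 5.71 and 4.95 in 2N, 5.43 and 6.39 in 3N, and 5.46, 6.07 and 6.18 in 4N, and 4 of the 8 arrays were detected. The groups overlapped in 2N cells only. Ccl9 passed the filter only through the knockdown arrays, which favours a rise. It was called in the averaged comparison (adjusted p = 0.0058, higher in 8 of 8 pairs, each with a control array below detection). The single comparisons did not pass, with at least 1.12-fold in 3N (adjusted p = 0.098) and at least 1.12-fold in 4N cells (adjusted p = 0.0887). The fitted averaged difference of 0.61 rests on control signals below detection, and it was 0.28 without background correction. Without the knockdown array of experiment 1 the 3N difference (adjusted p = 0.021) and the 4N difference (adjusted p = 0.036) passed.

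Ccl25, the ligand of Ccr9 that is made in thymus and small intestine, was the 1 member that fell. Its probe ILMN_2942353 read 7.80, 7.69 and 8.01 in 2N, 7.79 and 7.68 in 3N, and 7.67, 7.82 and 7.94 in 4N control cells. Knockdown cells read 7.73, 7.44 and 7.66 in 2N, 7.33 and 7.06 in 3N, and 7.54, 7.51 and 7.33 in 4N. The groups overlapped in 2N cells and were apart in 3N and 4N cells. It fell by 0.37 on the log2 scale over all DNA contents (SE 0.08, adjusted p = 0.00155, lower in 8 of 8 pairs) and by 0.54 in 3N cells (SE 0.15, adjusted p = 0.0329). The averaged fall was -0.24 without background correction. The 3N call was lost without the control array of experiment 1 (adjusted p = 0.153) or 2 (adjusted p = 0.0852) or the knockdown array of experiment 2 (adjusted p = 0.266).

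The second Ccl25 probe, ILMN_2661722, read between 6.15 and 7.02. Its averaged difference of -0.23 (SE 0.12) had an adjusted p of 0.145, and with the experiment as a block it was called lower (adjusted p = 0.0275), as were both Ccl25 probes in 4N cells (adjusted p = 0.0409 for ILMN_2661722 and 0.0414 for ILMN_2942353, against 0.196 and 0.0644 without the block). The second probe was also called lower in the averaged comparison without the 2N knockdown array of experiment 3 (adjusted p = 0.0432).

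**Figure D3:**
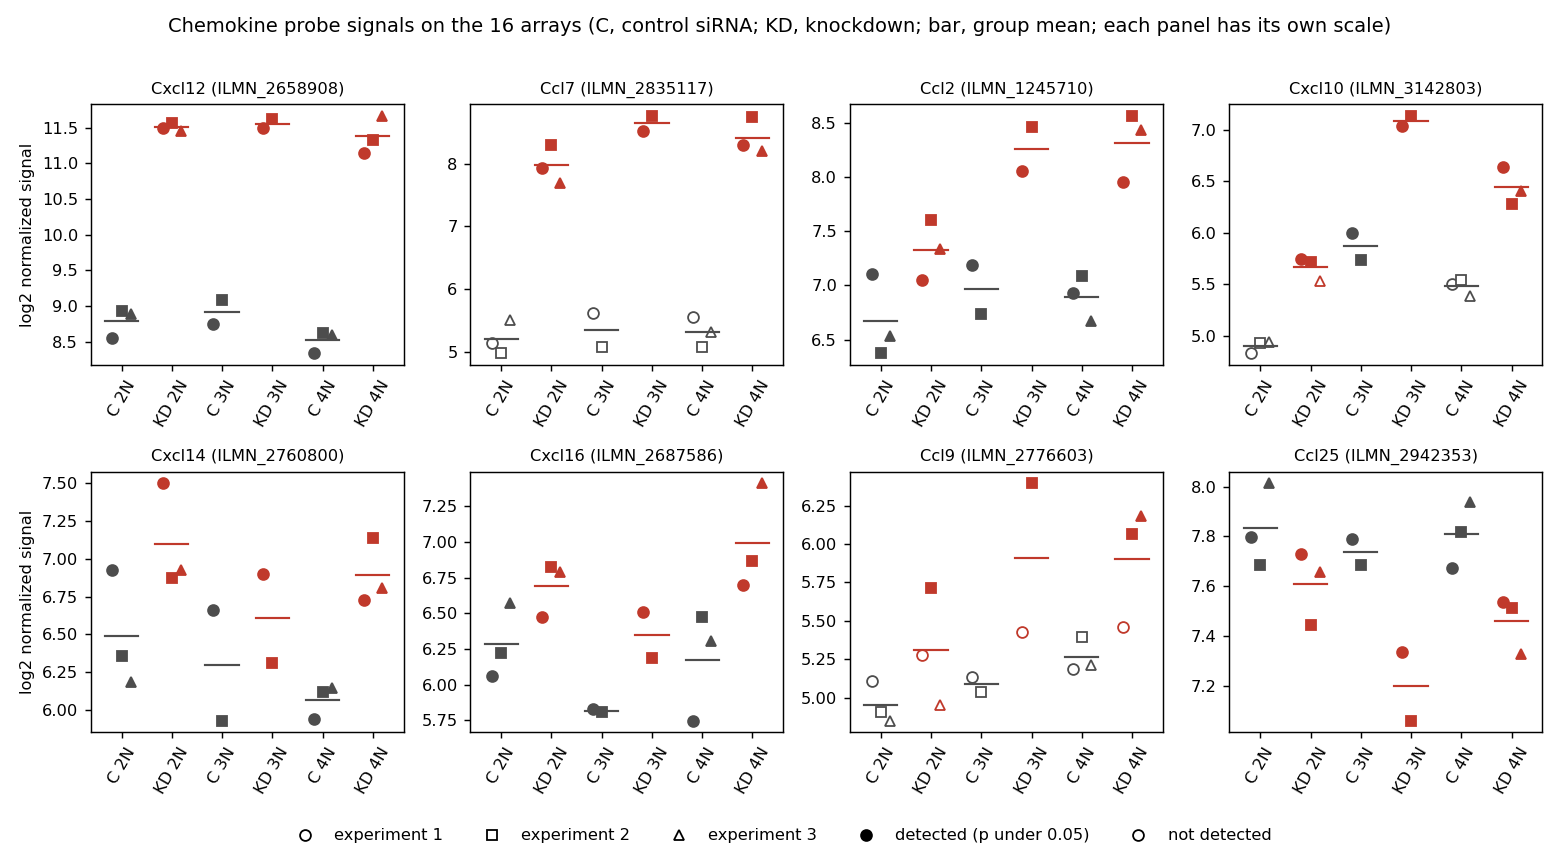
Log2 normalized signal on each of the 16 arrays (vertical axis, own scale in each panel) for 1 probe of each called gene, by group along the horizontal axis (C, control siRNA, KD, knockdown), with symbols by experiment, open where the probe was not detected, and a bar at the group mean. Ccl7 is open on all 8 control arrays and filled on all 8 knockdown arrays, and the Cxcl12 control arrays stay at 9.09 or below while the knockdown arrays start at 11.15.

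The remaining ligands were present on all 16 arrays and did not pass the threshold in any comparison of knockdown with control. Cxcl5 and Cxcl1, which attract neutrophils through Cxcr2, ran from 9.62 to 10.63 and from 9.33 to 10.26, and their averaged differences were -0.23 (95% interval -0.51 to 0.04) and -0.24 (-0.51 to 0.03). Ccl5, which attracts T cells, ran from 8.53 to 9.91 with a difference of 0.23 (-0.08 to 0.55). Cx3cl1, a membrane-tethered adhesion ligand, ran from 8.11 to 8.70 with a difference of 0.08 (-0.13 to 0.29). Ccl27a, a skin ligand of Ccr10 with near-identical copies in the mouse genome that its probes may also read, had probes that ran from 6.27 to 6.81 and from 7.96 to 8.70, with differences of 0.02 (-0.16 to 0.20) and 0.17 (0.00 to 0.35). The upper probe of Ccl27a was called higher in the averaged comparison (adjusted p = 0.0356) and in 2N cells (adjusted p = 0.0287) without the 2N control array of experiment 2, and Cxcl1 was called lower in the averaged comparison (adjusted p = 0.0442) without the 4N control array of experiment 3.

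Receptors for the ligands that rose were at the edge of detection or below it. Cxcr4, the receptor of Cxcl12, was detected on 14 arrays, all 8 of control and 6 of 8 of knockdown cells. It read 6.24, 6.27 and 5.84 in 2N, 6.15 and 5.73 in 3N, and 6.08, 5.99 and 6.38 in 4N control cells, against 6.14, 5.58 and 6.13, then 5.85 and 5.91, then 5.68, 5.83 and 6.29 after knockdown. The groups overlapped at every DNA content, and the averaged difference of -0.15 (95% interval -0.41 to 0.11) did not pass the threshold (adjusted p = 0.366). Cx3cr1, the receptor of Cx3cl1, was detected on 7 arrays (2 control and 5 knockdown), ran from 5.09 to 6.20, and differed by -0.02 (-0.30 to 0.26).

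All 10 probes of the CC receptors (Ccr1, Ccr2, Ccr3, Ccr4, Ccr6, Ccr7, Ccr8, Ccr9 and Ccr10) were detected on no array, as were those of Cxcr1, Cxcr2, Cxcr3, Cxcr5, Cxcr6 and Xcr1. These include the receptors of Ccl2 (Ccr2), Cxcl10 (Cxcr3), Cxcl16 (Cxcr6), Ccl9 (Ccr1) and Ccl25 (Ccr9). Of the atypical receptors Ackr1, Ackr2 and Ackr3, which also binds Cxcl12, were detected on no array, and 1 of 3 Ackr4 probes on 2 knockdown arrays. The undetected ligands were Ccl1, Ccl3, Ccl4, Ccl6, Ccl8, Ccl12, Ccl17, Ccl19, Ccl20, Ccl21a, Ccl21b, Ccl21c, Ccl22, Ccl24, Ccl26, Ccl28, Cxcl2, Cxcl3, Cxcl9, Cxcl11, Cxcl13, Cxcl15, Cxcl17 and Xcl1. Ccl11 had 1 of 2 probes detected on 1 array. A probe below detection gives an upper limit to its signal and does not show that the transcript is absent.

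The second question was whether chemokines differed along the cell cycle. Cxcl10 passed the threshold against 2N cells in every comparison, and Ccl2 passed it in knockdown cells. Among control cells 1 of 20 probes (Cxcl10) was called higher in 4N than in 2N cells, against 4.51% of all probes called (2.81% higher and 1.7% lower). It was below detection in both of these groups, and its probe passed the filter only through the knockdown arrays. From 2N to 3N control cells 1 probe (Cxcl10) was called higher, against 4.16% (2.9% and 1.26%). Among knockdown cells 2 probes (Ccl2 and Cxcl10) rose from 2N to 4N, against 5.09% (3.37% and 1.71%), and 2 (Ccl2 and Cxcl10) from 2N to 3N, against 5.48% (3.59% and 1.89%). No member was called lower.

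Group means of Cxcl10 were highest in 3N cells of both arms, a ranking that was not tested between 3N and 4N cells. Among control cells its 3N mean of 5.87 was at least 1.08-fold that of 2N cells (4.90, below detection, adjusted p = 0.000283), and the 4N mean of 5.48, also below detection, differed from 2N with an adjusted p of 0.0065. The last of these did not pass with an offset of 50 (0.30, adjusted p = 0.0702). Among knockdown cells it was higher than in 2N cells by 1.42 on the log2 scale in 3N (SE 0.13, adjusted p = 4.39e-06) and by 0.78 in 4N (SE 0.11, adjusted p = 0.000511). No fold is given, since the 2N knockdown signals lay at the detection limit, with 2 of 3 arrays above it. In both experiments with 3N arrays the 3N value lay above that of 2N and of 4N cells, in control and in knockdown cells. Without background correction the 4N rise in knockdown cells was 0.33 and the 3N rise 0.66.

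Ccl2 was 1.98-fold higher in 4N than in 2N knockdown cells (log2 0.99, SE 0.22, adjusted p = 0.0182) and 1.90-fold higher in 3N than in 2N knockdown cells (log2 0.93, SE 0.25, adjusted p = 0.0437), with no overlap in either comparison. In control cells the same differences were 0.22 (SE 0.22, adjusted p = 0.693) and 0.29 (SE 0.25, adjusted p = 0.649). The 3N difference was not called with the experiment as a block (adjusted p = 0.0588) or without the filter on dim probes (adjusted p = 0.0688). Both calls rested on single arrays. The 4N call was lost without the 2N array of experiment 1 (adjusted p = 0.0875) or 3 (0.0578) or the 4N array of experiment 2 (0.0843) or 3 (0.0741), and the 3N call without the 2N array of experiment 1 (0.145) or 3 (0.1) or the 3N array of experiment 1 (0.0835) or 2 (0.371).

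Ccl7 followed a like course, with knockdown means of 7.97 in 2N, 8.64 in 3N and 8.41 in 4N cells. Its differences from 2N knockdown cells, 0.67 (SE 0.23, adjusted p = 0.128) in 3N and 0.44 (SE 0.21, adjusted p = 0.297) in 4N, did not pass the threshold, although the 3N difference did without background correction (0.50, adjusted p = 0.0455), with an offset of 50 (0.60, adjusted p = 0.0477) and on the authors' processed values (0.51, adjusted p = 0.0456). The Cxcl12 probe ILMN_2658908 differed by -0.12 (95% interval -0.44 to 0.19) between 4N and 2N knockdown cells. The other tested Cxcl12 probes had means of 9.125 in 2N and 8.731 in 4N knockdown cells (ILMN_2737302), and of 8.825 and 8.436 (ILMN_3158250). No Cxcl12 probe was called between DNA contents.

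**Figure D4:**
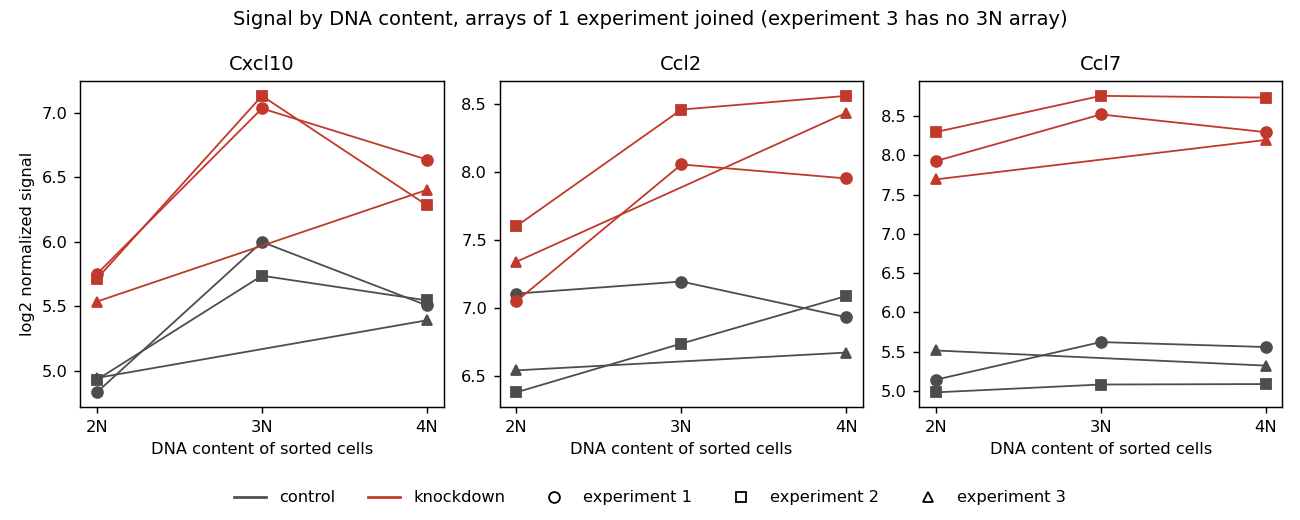
Log2 normalized signal (vertical axis) of Cxcl10, Ccl2 and Ccl7 by DNA content of the sorted cells (horizontal axis), with a line for each experiment and colours for control and knockdown cells. In the experiments with 3N arrays Cxcl10 reads highest at 3N in both arms, with knockdown values of 7.04 and 7.13. Ccl2 rises from 2N to 4N in the knockdown lines, from means of 7.33 to 8.32.

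The difference of the differences tested if the size of the knockdown effect was unequal in 4N and 2N cells. None of the 20 members and none of the 13882 probes passed the threshold in limma, and none did with the experiment as a block. At an unadjusted p under 0.05 there were 445 probes, 1 of them a member, Ccl2 (0.77, SE 0.31, unadjusted p = 0.0289, adjusted p = 1.00, larger in 4N in 3 of 3 experiments). The Ccl2 response is therefore not shown to differ between 4N and 2N cells.

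Genes around the chemokines were counted from lists, each gene by its brightest probe, in the averaged comparison where 37.5% of all probes were called. Of 25 measured genes of chemokine receptor signalling, 3 rose and 5 fell, with a median difference of -0.03 against -0.02 for all probes. The largest were falls of Vav3 (by 0.60, SE 0.07) and Tiam1 (by 0.47, SE 0.08), exchange factors for Rac, and of Ptk2b (by 0.45, SE 0.12), a focal adhesion kinase relative. Of 26 measured NF-kB pathway genes, 6 rose and 6 fell, with a median of -0.04. Irak2, a kinase below Toll-like and interleukin 1 receptors, rose by 1.25 (SE 0.11), Tlr2 rose by 0.95 (SE 0.06) and Traf1, an adaptor of tumor necrosis factor receptors, fell by 1.22 (SE 0.13).

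Of 14 measured interferon signalling genes, 4 rose and none fell, with a median of 0.20. Irf1 rose by 1.49 (SE 0.08), Irf9, a subunit of the factor that binds the ISRE, by 0.64 (SE 0.06) and Socs3, an inhibitor of this signalling, by 0.39 (SE 0.13), while Irf7 and Irf5 were detected on no array. Of 17 measured genes that present, trim or shed chemokines, 8 rose and 4 fell, with a median of 0.17. The cell surface heparan sulfate proteoglycans Sdc2, Gpc3 and Gpc4 had the largest differences, with rises of 1.47 (SE 0.08), 1.29 (SE 0.13) and 1.08 (SE 0.10), and Dpp4, which trims the amino terminus of Cxcl12, was detected on no array. Of relatives under other symbols, Ccrl2 was measured on 15 arrays with a difference of -0.02, and Pf4, Ppbp, Cmklr1 and Rarres2 did not reach 3 arrays.

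The probes whose levels were most like those of Cxcl12 (ILMN_2658908) over the 16 arrays, outside the members, were Nuak1 (Pearson r = 0.991), Bmp4 (0.988), Cd59a (0.987), Samd9l (0.985) and Cdkn2b (0.985). Among the members Ccl7 correlated with it at 0.967 and Ccl2 at 0.774, and the Ccl25 probe ILMN_2942353 at -0.75. These values describe arrays that fall into control and knockdown groups, and any probe that moves with the knockdown shares that split.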

How the data were processed

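RNA from 16 sorted samples was hybridised to 1 array each. The deposited file of unnormalized GenomeStudio output gives each probe's mean bead intensity (linear). Beside it the authors give a detection value that is a fraction, 1 minus the detection p. The authors' processed values are an intensity too and equal quantile normalized signals to within 0.0327 on the log2 scale. Deposited signals were background corrected from the detection values (normexp, offset 16), taken to log2 and quantile normalized (limma 3.58.1, R 4.3.3). The 13882 probes detected on at least 3 of 16 arrays were fitted with 1 mean for each of 6 groups and tested two-sided in limma after eBayes (residual degrees of freedom 10, prior 3.97), with Benjamini-Hochberg adjustment and a threshold of 0.05. The fit was tested on simulated data. Errors are SE from this fit. Folds given as "at least" hold on the background-corrected scale only, and the adjusted p beside them tests the fitted difference.

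The platform annotation named 23978 probes and left 1719 unnamed. Promoter sequences are from RefSeq. The members and the gene lists were chosen with earlier results of these data known. All members are accounted for, those called in a comparison with the value on every array, and up to 3 genes of each list with the largest averaged change. Titles give an experiment number, which the methods describe as independent experiments. Fewer RNA samples are counted there than the arrays used here. The paper describes its array comparison for 2N against 4N cells and does not mention 3N arrays. Deviations from the group means correlated at 0 to 0.494 in 36 pairs of arrays with the same number (median 0.243, over 0.1 in 30). In the 70 other pairs they correlated at -0.494 to 0.222 (median -0.146). Deviations cancel within a group by construction, so these negative values follow from the positive ones and are not separate evidence. The number was used as a block in an alternative fit. Other alternatives were no background correction, an offset of 50, the authors' processed values, no filter or a stricter filter on dim probes, 1 probe a gene, 2N and 4N arrays only, and each array left out in turn. Not given in the sources used here are the dose of the control siRNA, the culture, the hours to sorting, the slide of each array and the probe positions.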

Additional observations from a re-analysis of the deposited data

How the results depend on the processing

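Of 593 differences of called members recomputed under the alternatives, 570 stayed past the threshold in the same direction, 23 no longer passed and 0 reversed. Leaving out 1 array gave 6 to 8 called members in 2N, 5 to 8 in 3N and 6 to 9 in 4N cells for knockdown against control, 11 to 12 for the average, 1 to 2 for 4N against 2N and 1 to 2 for 3N against 2N in knockdown cells, 1 for both in control cells, and 0 for the difference of effects. With an offset of 50, 0 members were called for 4N against 2N in control cells, in place of 1. With the experiment as a replicate block, 1 member was called for 3N against 2N in knockdown cells, in place of 2, and beside the calls of Cxcl14, Ccl25 and Ccl2 given in the report the block changed no other member's call. Over all probes it called 2348 in place of 1482 for knockdown in 3N cells, 1149 in place of 626 and 1164 in place of 706 for 4N against 2N in control and knockdown cells, and 956 in place of 578 and 1231 in place of 761 for 3N against 2N. Without 1 array the counts over all probes were 679 to 917 for knockdown in 3N cells, 445 to 565 for 4N against 2N in knockdown cells, and 294 to 538 (control) and 289 to 642 (knockdown) for 3N against 2N. Without a filter, Ccl17 (averaged, and in 3N cells) and Ccr10 (in 3N cells, and 3N against 2N) were called on probes detected on no array. The comparisons that need 3N arrays have no value from the 2N and 4N arrays alone. Signal over background limits Ccl7, Ccl9, Cxcl10 and the Cxcl14 probe ILMN_2659426, whose control signals were mostly at or below detection, and 2 arrays per group limit the 3N comparisons.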
